A study of Mus musculus with 5 samples.

Results

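The collagen chain genes are the genes whose symbol is Col, a number, a and a number, such as Col1a1. They are 44 of the 32285 genes in each count table. The rule uses the symbol alone and no measured value. Over the cells kept for analysis, 4 chains had no unique molecular identifier (UMI, the tag that counts 1 captured transcript), 17 had 1 to 99 UMIs over the 5 libraries, 6 had at least 100 but under 1000 and 17 had 1000 or more.

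The libraries came from tumours that Lewis lung carcinoma (LLC) cells, a mouse lung cancer line, formed in the flanks of mice. The LLC cells carried a scrambled control guide RNA (Scramble, 3 libraries) or, in the knockout tumours (JAG2KO, 2 libraries), a guide for JAG2, which encodes a ligand of Notch receptors. The tumours were dissociated with Liberase, an enzyme mixture that digests collagen, and live cells with surface CD45, the marker of blood-derived cells, were sorted before droplet sequencing of transcript 3′ ends. The title of the series asks how targeting the ligand in the tumour acts on macrophages through Notch. Time, age, strain and the number of animals are not given in the sources used here, and nothing says that the libraries of a group came from separate animals, so p-values measure the spread between these libraries, which may be technical. The guide is in the cancer cells, and the mouse's own cells keep the gene. Jag2 had 0, 3 and 3 UMIs in the tumour-like cells of Scramble 1, 2 and 3 and 2 and 0 in those of JAG2KO 1 and 2, too few to check the labels, and a 3′ tag outside the edited part would check nothing.

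A collagen molecule is a triple helix of 3 chains, built in the endoplasmic reticulum, hydroxylated and glycosylated there, secreted, trimmed and cross-linked outside the cell. Fibrillar collagens (types I, III and V) form the fibres of connective tissue and are made mainly by fibroblasts. Type IV makes the network of basement membranes under endothelium and epithelium, type VI makes beaded filaments beside cells, and the multiplexins (types XV and XVIII) sit in basement membranes. In a sort for CD45, cells of the fibroblast, endothelial and tumour lineages are leftovers of the gate, so their shares are set by the sort.

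Libraries held 10262 to 21854 barcodes and 84788907 to 111680641 UMIs, and 8221 to 19338 cells were kept. JAG2KO 2 stood apart, with the most barcodes and a median of 2422 UMIs per kept cell, against 8064.5 to 8965 in the other 4 libraries. Pairs of libraries shared 26 to 74 barcodes, 0.244% to 0.633% of the smaller library's. Cells were gated on marker genes that include no collagen. The fibroblast gate held 2, 3 and 3 cells of Scramble 1, 2 and 3 and 16 and 11 of JAG2KO 1 and 2, the Rhox5-positive tumour-like gate 63, 93, 70, 172 and 125, the endothelial gate 3, 2, 0, 5 and 8, and the macrophage gate 6102, 6283, 5457, 7590 and 14152. All levels are CPM, the UMIs of a gene scaled by the UMIs of all genes in that gate and library. Each transcript gives 1 tag at its end, so CPM need no correction for gene length when chains are compared.

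Promoter windows were taken for the chains on which the gate comparison below turns. RefSeq sequences of GRCm38.p6 gave a window of 250 bases before the start for 35 of the 44 chains, 3 of them with more than 1 window. Col12a1, Col14a1, Col1a1, Col22a1, Col26a1, Col2a1, Col4a3, Col5a2 and Col9a3 are named without a window. Both strands of the windows were searched for the letters TATAA of a core promoter element, for the box CCAAT, and for the GC box letters GGGCGG. Each printed stretch is the last 150 bases before the start, 5′ to 3′ on the gene's strand, with motif matches in capitals. Col3a1 (chr1:45311388-45311537, + strand) is shown because it was the most abundant chain in both fibroblast and tumour-like cells, Col1a2 (chr6:4505468-4505617, + strand) because it was high in the former and near 0 in most of the latter, and the windows of 2 starts of Col18a1 (chr10:77166531-77166680 and chr10:77113706-77113855, - strand) because it was the 1 chain called higher in tumour-like cells than in fibroblasts and macrophages.
Col3a1: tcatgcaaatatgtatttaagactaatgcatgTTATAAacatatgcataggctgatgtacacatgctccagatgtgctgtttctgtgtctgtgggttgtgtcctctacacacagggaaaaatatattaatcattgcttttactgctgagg
Col1a2: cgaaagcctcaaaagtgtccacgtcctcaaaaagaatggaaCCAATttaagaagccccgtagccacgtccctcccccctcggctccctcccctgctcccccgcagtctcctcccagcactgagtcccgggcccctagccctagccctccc
Col18a1, first start: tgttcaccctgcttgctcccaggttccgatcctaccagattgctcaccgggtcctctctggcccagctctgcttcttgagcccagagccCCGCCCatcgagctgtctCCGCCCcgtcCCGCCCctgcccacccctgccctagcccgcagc
Col18a1, second start: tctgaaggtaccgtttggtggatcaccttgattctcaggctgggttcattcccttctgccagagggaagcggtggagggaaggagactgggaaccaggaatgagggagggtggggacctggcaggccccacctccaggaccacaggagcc
The capitals of Col3a1 hold overlapping matches to TATAA on both strands, 118 to 113 bases before the start. Those of Col1a2 are a CCAAT 109 to 105 bases before the start, and those of the first Col18a1 start are 3 matches to GGGCGG on the opposite strand. The second Col18a1 window holds none of the 3 motifs. Over all 32851 RefSeq windows of this length TATAA was found in 22.8%, CCAAT in 33.8% and GGGCGG in 32.7%. Of the 38 collagen windows 7 held TATAA, 13 CCAAT and 22 GGGCGG, which is 18.4%, 34.2% and 57.9%. These matches are letters in a window and are not known sites.

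Some chains lie beside each other in the genome. Col4a1 (chr8:11198423-11312826, - strand) and Col4a2 (chr8:11312805-11449287, + strand) start head to head, and their annotated ends overlap by 22 bases at chr8:11312805-11312826. That stretch is shown because both chains were the leading ones of the endothelial gate. Motif matches are not put in capitals in it, and it holds the letters GGGCGG.
Col4a1 and Col4a2 overlap, + strand: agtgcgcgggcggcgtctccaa
Col3a1 (chr1:45311538-45349706, + strand) and Col5a2 (chr1:45374321-45503282, - strand) lie tail to tail, 24614 bases apart. Col6a2 and Col6a1 are on chromosome 10 on the same strand with 85161 bases between them.

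**Figure D1:**
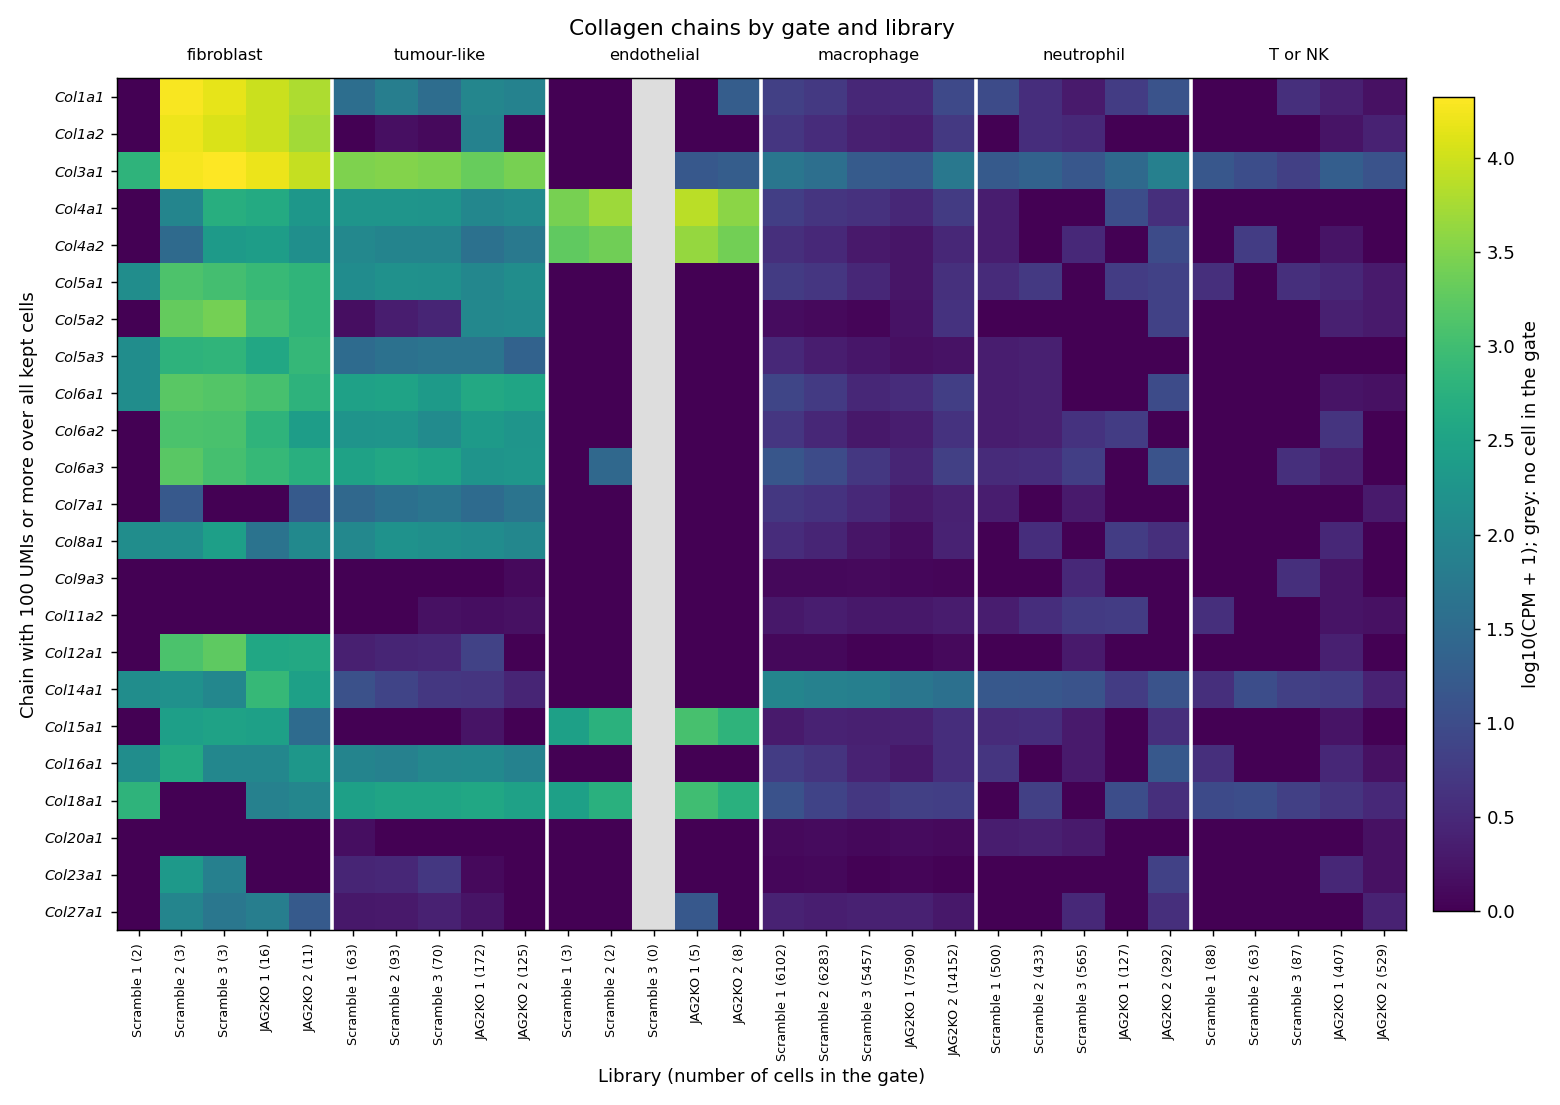
Levels of the 23 chains with at least 100 UMIs over all kept cells, as log10 of CPM + 1 (colour), by gate and library (columns, with the number of gated cells in brackets). Fibroblast columns other than Scramble 1 are brightest for Col1a1, Col1a2 and Col3a1, tumour-like columns for Col3a1, and endothelial columns for Col4a1 and Col4a2, while Col14a1 is the brightest chain of the macrophage columns other than JAG2KO 2, where Col3a1 is.

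Fibroblasts had higher levels of most chains tested, led by the fibrillar ones. In the gate comparison 15 of 22 chains tested were higher in fibroblasts than in tumour-like cells and 1 was lower, against 9.77% and 7.04% of all genes tested. Against macrophages 19 were higher and 0 lower, against 11% and 12.5% of all genes. The 22 chains had a median log2 difference of 2.33 from tumour-like cells and 7.56 from macrophages, where all genes had -0.15 and -0.34. This fit used gates with at least 10 cells of a library, so that fibroblasts entered with JAG2KO 1 and 2 alone, tumour-like cells and macrophages with all 5 libraries, and library as a block. Adjusted p-values here and below are Benjamini-Hochberg values over all genes from edgeR's quasi-likelihood test, and the value after ± of a log2 difference is its standard error.

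Col3a1, the single chain of type III collagen, led the fibroblast gate with 15499 and 8723 CPM in JAG2KO 1 and 2. In the Scramble libraries it stood at 646, 18522 and 20941 CPM in 2, 3 and 3 cells. Scramble 1 was far below the other 4 libraries. Its 2 cells held 16 collagen UMIs among 7734 UMIs, and C1qa, a macrophage complement gene, stood at 2715 CPM in them against 90.3 to 348 CPM in the fibroblasts of the other libraries. Over the 12 fibroblast markers their summed level was 1552 CPM, with 8 markers at 0, Pdgfra among them, while the other libraries had 7299 to 13425 CPM with 0 to 2 markers at 0. These 2 cells therefore go against the name of the gate.

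Type I collagen followed. Col1a1 had 0, 19258, 14280, 9541 and 6269 CPM in the fibroblasts of Scramble 1, 2 and 3 and JAG2KO 1 and 2. Its partner Col1a2 had 0, 16207, 11782, 9304 and 5209 CPM. Both were high in the same 4 libraries, and in the tested libraries (JAG2KO 1 and 2) the 3 chains Col3a1, Col1a1 and Col1a2 averaged 12111 ± 4791, 7905 ± 2313 and 7257 ± 2896 CPM (SD, n = 2). They made up 36.2%, 23.6% and 21.7% of the collagen UMI level there. Not every gated cell held type I chains. In JAG2KO 1, 13 of 16 cells had a Col1a2 UMI, 13 a Col1a1 UMI and 16 a Col3a1 UMI. Of the 11 cells of JAG2KO 2, 4 had a Col1a2 UMI, 7 a Col1a1 UMI and 10 a Col3a1 UMI, and 1 cell held 180 of the 329 Col1a2 UMIs.

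Against tumour-like cells Col1a1 was higher by 6.65 ± 0.52 on the log2 scale (adjusted p = 2.1e-05) and Col1a2 by 8.51 ± 1.20 (adjusted p = 0.00089). The Col1a2 size rests on 1 tumour-like cell of JAG2KO 1 with 572 UMIs, and without cells of over 100 Col1a2 UMIs it was 13.8, against tumour-like sums near 0. Col3a1 was higher by 2.37 ± 0.52 (adjusted p = 0.011). Tumour-like cells held Col3a1 too, at 2077 to 3314 CPM. Without JAG2KO 1 it was 1.07 with an adjusted p of 0.363.

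By mean level in JAG2KO 1 and 2, Col6a1 came next (889 CPM), before the type V chains Col5a2 (854 CPM) and Col5a1 (751 CPM). Type V chains join type III and type I fibres. Col5a2 had 0, 1993, 2599, 1028 and 681 CPM in fibroblasts, Col5a1 129, 1288, 1085, 822 and 681 CPM, and Col5a3 129, 613, 681, 396 and 760 CPM. They were higher than in tumour-like cells by 3.39 ± 0.71 (adjusted p = 0.0080), 3.06 ± 0.46 (adjusted p = 0.0013) and 4.18 ± 0.49 (adjusted p = 0.00025). Of the type VI chains, Col6a1 had 129, 1671, 1463, 1161 and 617 CPM in fibroblasts. Col6a1 and Col6a3 were higher than in tumour-like cells by 1.495 ± 0.42 (adjusted p = 0.034) and 2.11 ± 0.48 (adjusted p = 0.013), while Col6a2 had a difference of 1.44 ± 0.52 and did not pass (adjusted p = 0.086).

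The fibril-associated chains Col12a1 and Col14a1 sit on fibre surfaces. Col14a1 was higher in fibroblasts than in tumour-like cells by 7.45 ± 0.35 (adjusted p = 8.0e-07), and Col12a1 by 7.05 ± 0.85 (adjusted p = 0.00032). Col14a1 had 179 and 18 UMIs in the fibroblasts of JAG2KO 1 and 2, which were tested. In those of Scramble 1, 2 and 3, which were not, it had 1, 10 and 4. The other chains past the threshold in both contrasts were Col4a1, Col4a2, Col4a4, Col15a1 and Col27a1, which with those above make 15 chains that mark fibroblasts. Of these, Col27a1 rests on few UMIs, with 16 and 1 in the tested fibroblasts of JAG2KO 1 and 2. In the tumour-like cells of Scramble 1, 2 and 3 it had 2, 4 and 5, and in those of JAG2KO 1 and 2 it had 5 and 0. Col4a4 was not called against tumour-like cells without JAG2KO 1, nor without JAG2KO 2, so its place among the markers needs both libraries. Without JAG2KO 1, where the 11 fibroblasts of JAG2KO 2 remained, 5 chains marked them, and with the immune ceiling of the gates set at 50% rather than 25% of the macrophage level 9 did. In the fit with an endothelial gate 10 chains marked fibroblasts: Col1a1, Col1a2, Col3a1, Col5a1, Col5a2, Col5a3, Col6a1, Col6a3, Col12a1 and Col14a1.

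Tumour-like cells, gated by at least 2 UMIs of the homeobox gene Rhox5 and low immune genes, had a collagen programme dominated by 1 chain. Rhox5 stood at 579 to 632 CPM there. The immune gene Ptprc (CD45) was at 11.1 to 25.7 CPM, against 474 to 586 in macrophages. The epithelial gene Epcam was at 0 to 0.14 CPM. Fibroblast genes were detected: Dcn, the proteoglycan decorin, had 1113, 1054 and 820 CPM in Scramble, and in JAG2KO 438 and 689 CPM. The fibroblast panel was positive in 51 of 63, 84 of 93, 62 of 70, 147 of 172 and 100 of 125 tumour-like cells. Whether these are cancer cells with fibroblast genes or droplets that hold a cancer cell and a fibroblast was not tested, so every tumour-like value below is a value of cells with Rhox5, most of them with fibroblast genes too. Cells without the fibroblast panel reached the 20-cell minimum in 2 libraries, and the JAG2KO test could not be fitted on them alone. The median depth of the whole tumour-like gate, 23198 to 45263 UMIs, was above that of macrophages (2817 to 9720.5).

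Col3a1 had 3065, 3314 and 2950 CPM in the tumour-like cells of Scramble 1, 2 and 3 and 2077 and 2692 CPM in those of JAG2KO 1 and 2. It gave 60.1% of their collagen level and was found in 93.6% to 98.3% of the cells of a library. Next came Col18a1, whose C-terminal fragment is endostatin, with 280, 333, 327, 374 and 292 CPM. The 5 libraries lay close together for Col18a1. Col6a1 had 295, 320, 230, 400 and 344 CPM, Col6a3 309, 391, 319, 173 and 187 CPM, Col6a2 172, 176, 122, 228 and 179 CPM, and Col4a1 177, 178, 174, 98.8 and 122 CPM. Col5a1, Col8a1 and Col16a1 ranged from 79.2 to 156 CPM.

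Type I collagen was low beside type III in these cells, in contrast with fibroblasts. Col1a2 had 0, 2 and 1 UMIs in Scramble 1, 2 and 3 and 0 in JAG2KO 2, which allows up to 2.4% of the 125 cells of that library to hold a Col1a2 UMI and says nothing of cells that express it below detection. In JAG2KO 1 it had 579 UMIs, of which 572 were in 1 cell. That same library's Col1a1 had 688 UMIs with 501 in 1 cell. Elsewhere Col1a1 had 35.3, 70.4 and 33.9 CPM in Scramble against 82.7 CPM in JAG2KO 2.

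Against macrophages 17 of the 22 chains tested were higher in tumour-like cells and 2 lower, where 36.7% and 39.2% of all genes were. Col18a1 was higher by 5.51 ± 0.23 (adjusted p = 4.5e-09) and Col3a1 by 6.27 ± 0.43 (adjusted p = 1.7e-07). Col14a1 was lower, with a log2 difference of -3.92 ± 0.22 (adjusted p = 3.7e-08) and so was Col15a1 (adjusted p = 0.0065), for which no size is given, since 4 libraries had 0 tumour-like UMIs and JAG2KO 1 had 5, and which was not called with tumour-like cells at 1 Rhox5 UMI or more (adjusted p = 0.309). With an endothelial gate in the fit, described below, no chain marked tumour-like cells. Col18a1 averaged 768 CPM in the endothelial cells of JAG2KO 1 and 2, against 321 CPM in the tumour-like cells of the 5 libraries. In the fit without that gate Col18a1 was the 1 chain that marked tumour-like cells, since the fibroblast minus tumour-like difference was -1.90 ± 0.49 (adjusted p = 0.023). Without JAG2KO 1, without JAG2KO 2, and with all sums thinned to 1 depth, no chain marked them.

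Endothelial cells were marked by the type IV chains among the gates compared. The pericyte gate, with 1 cell of Scramble 1 and 3 of JAG2KO 2, entered no comparison, and its type IV levels were close to the endothelial ones. With 3, 2, 0, 5 and 8 cells the endothelial gate could not enter the comparison as designed. In a fit with at least 5 cells of a library, chosen after seeing the data, JAG2KO 1 and 2 entered. Cdh5, the endothelial cadherin, stood at 841 to 2366 CPM in the gate and the fibroblast gene Dcn at 0, and of the 12 endothelial markers 11 or 12 had UMIs in each of the 4 libraries with cells.

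Col4a1 had 2711 and 4811 CPM in Scramble 1 and 2 and 7503 and 3764 CPM in JAG2KO 1 and 2. Col4a2, the chain that joins it in the same triple helix, had 1870, 2392, 4257 and 2563 CPM in those libraries. Both type IV chains were high in each library, though 1 cell held 28 of the 29 Col4a1 UMIs of Scramble 1. Averaged over JAG2KO 1 and 2, Col4a1 made up 52.2% of the collagen level and Col4a2 31.6%. The multiplexins Col15a1 (280.5, 584, 1169 and 645 CPM) and Col18a1 (280.5, 556, 981 and 556 CPM) followed. The fifth and sixth chains were Col28a1, with 4 UMIs in 1 cell of JAG2KO 1, and Col3a1, with 2 UMIs.

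Of 20 chains tested in this fit, 3 were higher in endothelial cells than in fibroblasts and 11 lower, against 1.92% and 2.6% of all genes. Col4a1 was higher by 3.64 ± 0.49 (adjusted p = 0.0010), Col4a2 by 3.59 ± 0.49 (adjusted p = 0.0011) and Col18a1 by 2.94 ± 0.52 (adjusted p = 0.0051). Type I and type III chains were near 0 in them: 0 UMIs of Col1a2, 1 of Col1a1 and 2 of Col3a1 over the 18 cells. Against tumour-like cells 3 chains were higher, Col4a1 (5.27 ± 0.40, adjusted p = 1.7e-06), Col4a2 (5.79 ± 0.40, adjusted p = 6.2e-07) and Col15a1 (adjusted p = 5.4e-07; no size is given, for the same reason), where 5.84% of all genes were. Against macrophages 4 were higher, Col4a1, Col4a2, Col15a1 and Col18a1, where 5.94% of all genes were.

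Col4a1 and Col4a2 were thus higher in endothelial cells than in each of the 3 other gates tested. Against fibroblasts, Col4a2 and Col18a1 were not called without JAG2KO 1 (differences of 4.14 and 2.52). Col18a1 was also not called without JAG2KO 2 (3.21). Col15a1 did not pass against fibroblasts (1.98 ± 0.62, adjusted p = 0.097), and Col18a1 did not pass against tumour-like cells (1.03 ± 0.34, adjusted p = 0.075). Without JAG2KO 1 or JAG2KO 2 the endothelial gate rests on 8 or 5 cells of 1 library. Chains called against fibroblasts were then 4 and 6 instead of 14, with the spread taken from the other gates, since each of these arms is 1 library.

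**Figure D2:**
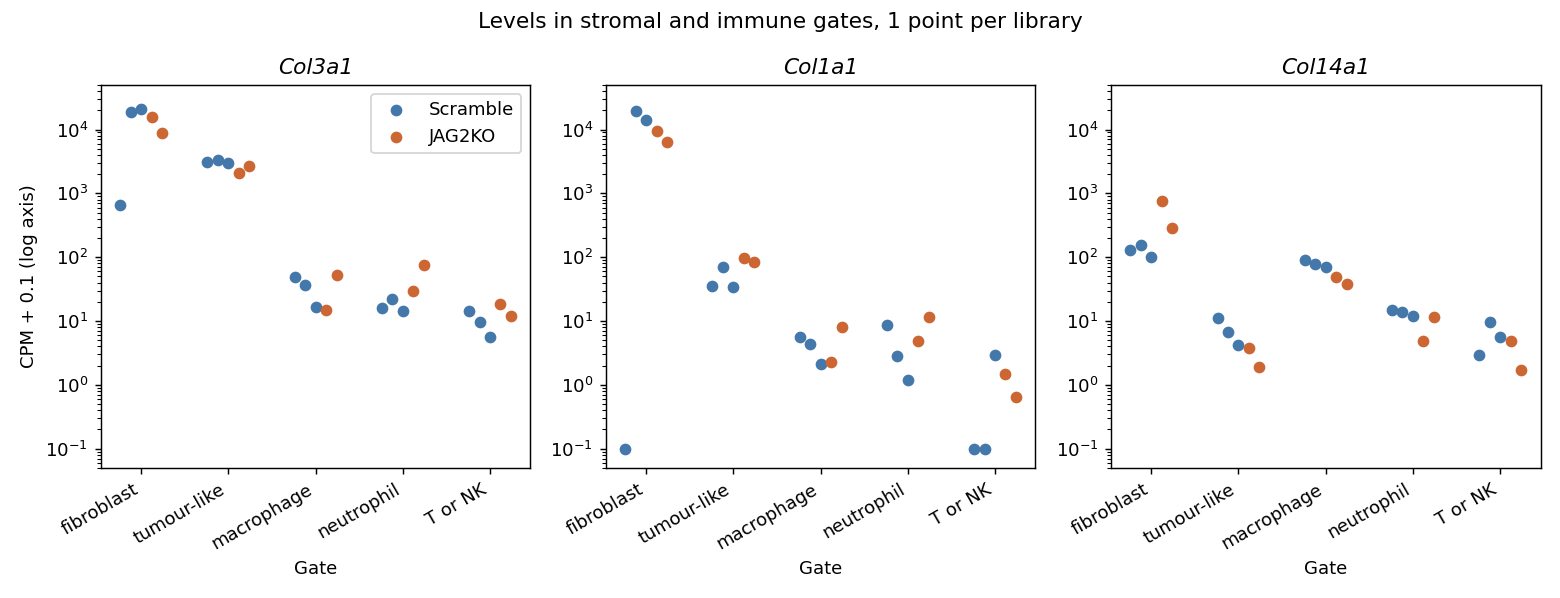
CPM + 0.1 (log axis) of Col3a1, Col1a1 and Col14a1 in 5 gates (x axis), 1 point per library, blue for Scramble and orange for JAG2KO. Col3a1 and Col1a1 fall from fibroblasts to tumour-like cells to the immune gates, except that the 2 Scramble 1 fibroblasts lie below the tumour-like cells (646 against 3065 CPM for Col3a1 and 0 against 35.3 CPM for Col1a1), while Col14a1 in macrophages (38.5 to 90.02 CPM) lies above tumour-like cells (1.78 to 10.9 CPM).

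Macrophages, neutrophils and T or NK cells are not known as main makers of fibrillar collagen, and free RNA in the droplets can give them UMIs. Col3a1 had 49.3, 36.5, 16.6, 14.7 and 53.5 CPM in the macrophages of Scramble 1, 2 and 3 and JAG2KO 1 and 2. In neutrophils it had 15.9, 22.0, 14.2, 29.1 and 75.0 CPM, and in T or NK cells 14.001, 9.57, 5.60, 18.4 and 11.8 CPM. These ranges overlap across libraries. Within a library macrophage Col3a1 was above that of T or NK cells except in JAG2KO 1. It was above that of neutrophils in Scramble 1, 2 and 3 and below it in JAG2KO 1 and 2. Macrophage Col3a1 was 0.562% to 1.99% of the tumour-like level of the same library. In macrophages Col1a1 ranged from 2.05 to 7.90 CPM, Col1a2 from 1.20 to 4.22 CPM, Col18a1 from 3.92 to 11.2 CPM and Col6a3 from 1.83 to 13.2 CPM. The 12 fibroblast markers summed to 8.64 to 34.5 CPM in the same macrophages, a gate that leaves out cells positive for that panel. Whether collagen and marker UMIs lay in the same cells was not tested.

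The share of macrophages with a Col3a1 UMI was 30.4%, 24.9%, 13.9%, 13.5% and 12.5%, at median depths of 8629, 8299, 9027, 9720.5 and 2817 UMIs. In T or NK cells, which should lack Col3a1, it was 5.68%, 3.17%, 2.30%, 6.39% and 2.65% at medians of 2448 to 3052 UMIs. Thinned to 1000 UMIs per cell the Col3a1 share was 4.36%, 3.42%, 1.52%, 1.78% and 7.48% in macrophages and 0% to 3.23% in T or NK cells. The thinning left out 2482 shallower macrophages of JAG2KO 2 and 72 to 232 of the other libraries. Order among libraries therefore changed with depth, with JAG2KO 2 lowest before thinning and highest after it.

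Col14a1 was 1 of 2 chains called higher in macrophages than in tumour-like cells, with Col15a1. It had 90.02, 78.7, 71.0, 49.5 and 38.5 CPM in macrophages, above its level in tumour-like cells (10.9, 6.56, 4.09, 3.67 and 1.78 CPM), neutrophils (14.6, 13.7, 11.98, 4.85 and 11.5 CPM) and T or NK cells (2.80, 9.57, 5.60, 4.77 and 1.60 CPM) of each library. Per UMI of Col3a1, macrophages held 1.82, 2.16, 4.28, 3.36 and 0.72 UMIs of Col14a1, tumour-like cells 0.00066 to 0.0035, and fibroblasts other than those of Scramble 1 0.0048 to 0.050. The macrophage gate held 70.6%, 64.6%, 79.0%, 85.6% and 87.5% of the Col14a1 UMIs, and 65.7%, 59.9%, 69.8%, 76.6% and 76.9% of the UMIs of all genes.

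Within macrophages Col14a1 went with Fcrls, a gene of tissue-resident macrophages and microglia, which was chosen after seeing the data. Macrophages with an Fcrls UMI had 109, 94.5, 85.4, 58.1 and 46.7 CPM of Col14a1, and those without had 27.9, 21.8, 25.6, 35.7 and 31.2 CPM. After thinning to 1000 UMIs, 9.67%, 8.55%, 8.30%, 5.93% and 4.37% of the former and 2.02%, 2.01%, 2.07%, 2.93% and 3.20% of the latter had a Col14a1 UMI. The former were higher in each of the 5 libraries. For Col3a1 the same split gave 56.3 against 26.8, 39.2 against 26.5, 17.3 against 14.3, 13.6 against 16.5 and 29.25 against 74.9 CPM, higher with Fcrls in Scramble and lower in JAG2KO. Median depth differed too, at 6480.5 to 11722.5 UMIs with Fcrls and 1904.5 to 7599.5 without.

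**Figure D3:**
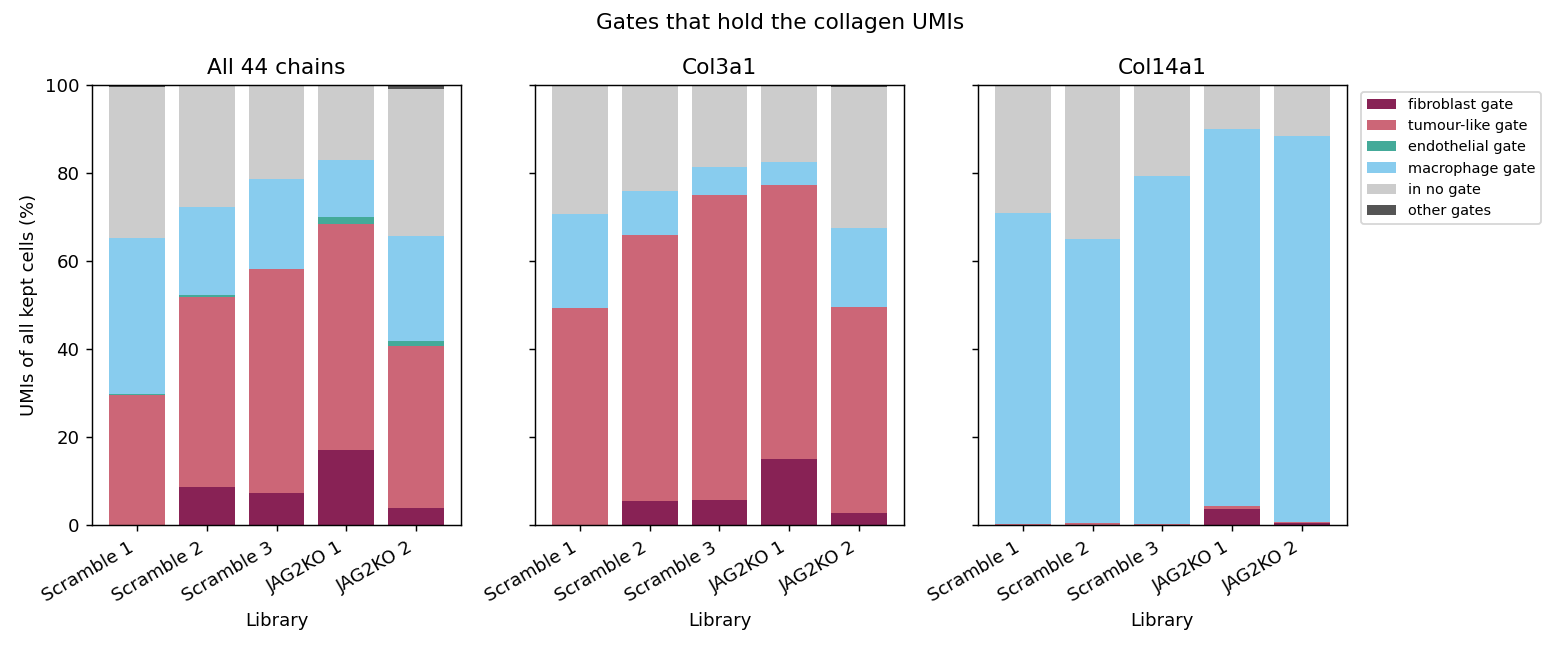
Share of the UMIs of all kept cells (y axis, %) held by each gate (colours), for all 44 chains together, Col3a1 and Col14a1, by library (x axis). Tumour-like cells hold 29.6% to 51.3% of all collagen UMIs, and macrophages hold most of the Col14a1 UMIs.

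Rare cells held a large part of the collagen UMIs. Tumour-like cells, 0.646% to 1.67% of kept cells, held 29.6%, 43.2%, 51.0%, 51.3% and 36.9% of collagen UMIs in Scramble 1, 2 and 3 and JAG2KO 1 and 2. Fibroblasts held 0.0445%, 8.66%, 7.32%, 17.1% and 3.93%, and macrophages 35.4%, 19.9%, 20.5%, 13.0% and 23.8%. Cells in no gate held 16.7% to 34.2%, and those among them with a Rhox5 UMI or a positive stromal panel (384 to 1190 cells of a library) held 15.8% to 29.5%.

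Single cells weighed heavily on type I collagen. For Col1a1, fibroblasts held 0%, 40.5%, 65.8%, 56.4% and 16.6% of a library's UMIs. In Scramble 1, where the fibroblast gate had none, 1 cell in no gate held 1109 Col1a1 UMIs and 1 held 734 Col1a2 UMIs. The share of tumour-like cells was 0.805% ± 0.125 (SD, n = 3) in Scramble and 1.16% ± 0.727 (SD, n = 2) in JAG2KO (two-sided exact permutation p = 0.5). Fibroblasts were 0.0289% ± 0.0077 and 0.106% ± 0.070 (exact permutation p = 0.1, the smallest that 10 splits allow), and endothelial cells 0.017% ± 0.016 and 0.045% ± 0.0052 (exact permutation p = 0.2).

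**Figure D4:**
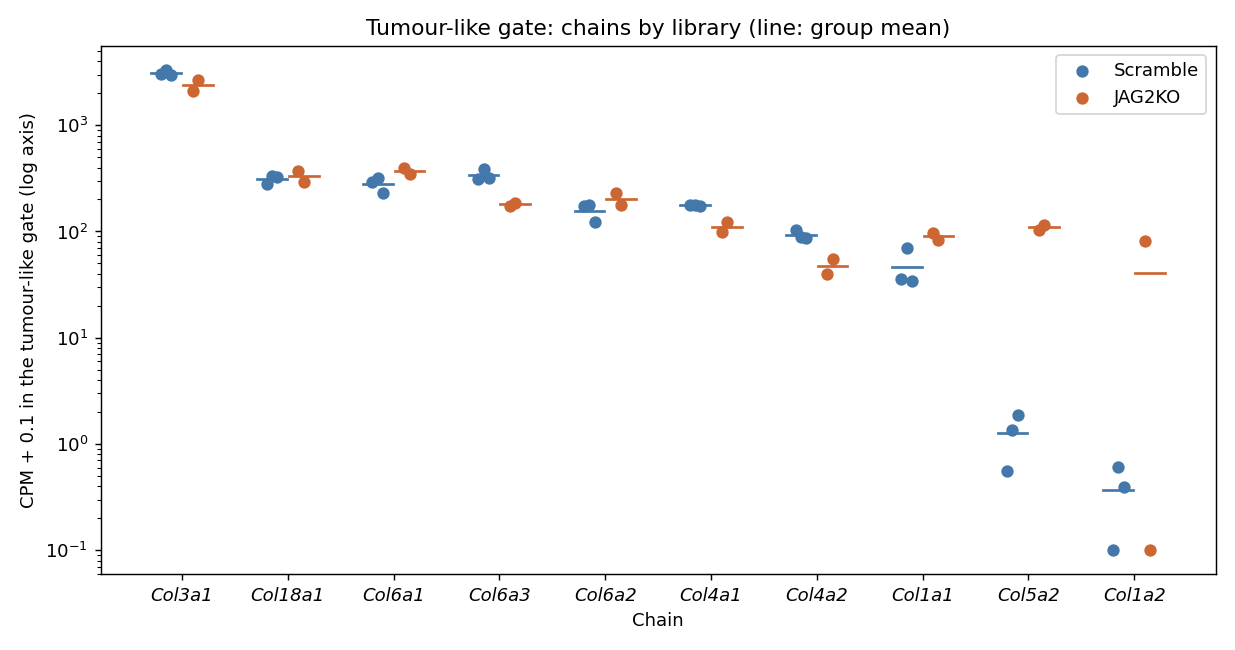
CPM + 0.1 (log axis) of 10 chains in the tumour-like gate (x axis), 1 point per library and a line at the group mean, blue for Scramble and orange for JAG2KO. Col5a2 lies at 0.453 to 1.75 CPM in Scramble against 104 to 116 CPM in JAG2KO, Col6a3, Col4a1 and Col4a2 are lower in both JAG2KO libraries, and the high Col1a2 point is the library in which 1 cell holds 572 UMIs.

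In tumour-like cells Col5a2 was near 0 in Scramble and well detected in JAG2KO, while the abundant Col3a1 and Col18a1 were not called. Of 15 chains tested 2 were higher and 3 lower in JAG2KO. Over all 10713 genes tested 9.47% passed, 4.11% higher and 5.36% lower. The median log2 difference was -0.11 over the 15 chains and -0.0012 over all genes.

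Col5a2, the second chain of type V collagen, had 1, 5 and 6 UMIs in the tumour-like cells of Scramble 1, 2 and 3 and 738 and 392 UMIs in those of JAG2KO 1 and 2. As levels these are 0.453, 1.26 and 1.75 CPM against 104 and 116 CPM, with means of 1.16 ± 0.657 (SD, n = 3) and 110 ± 8.57 (SD, n = 2). The groups lie far apart, with no library between them. The log2 difference was 6.48 ± 0.24 (adjusted p = 2.0e-07).

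Most JAG2KO tumour-like cells carried it. A Col5a2 UMI was found in 1 of 63, 5 of 93 and 4 of 70 Scramble cells and in 135 of 172 and 85 of 125 JAG2KO cells. As shares these are 1.59% (exact Clopper-Pearson 95% interval 0.0402% to 8.53%), 5.38% (1.77% to 12.1%) and 5.71% (1.58% to 13.99%) for Col5a2 in Scramble, and 78.5% (71.6% to 84.4%) and 68.0% (59.1% to 76.1%) in JAG2KO. The intervals cover counting error only. The cell with most Col5a2 held 48 of the 738 UMIs and 16 of the 392, so that no single cell held most of them. Thinned to 1000 UMIs per cell, 0% of cells in each Scramble library and 11.6% and 8.80% of JAG2KO cells had a Col5a2 UMI.

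Col5a2 lies tail to tail with Col3a1, whose level did not go with it. Col3a1 had means of 3110 ± 186 CPM in Scramble and 2385 ± 434 CPM in JAG2KO, a difference of -0.33 ± 0.14 (adjusted p = 0.171). The partner chain Col5a1 had 140 ± 13.9 and 113 ± 21.7 CPM (-0.28 ± 0.15, adjusted p = 0.300), and Col5a3 38.4 ± 6.78 and 33.6 ± 16.9 CPM (adjusted p = 0.832). With tumour-like cells taken at 1 Rhox5 UMI or more, the Col5a2 difference was 3.10 (adjusted p = 0.020). A single Scramble 2 cell with 1 Rhox5 UMI then entered, which held 128 Col5a2, 1107 Col1a1 and 971 Col1a2 UMIs.

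**Figure D5:**
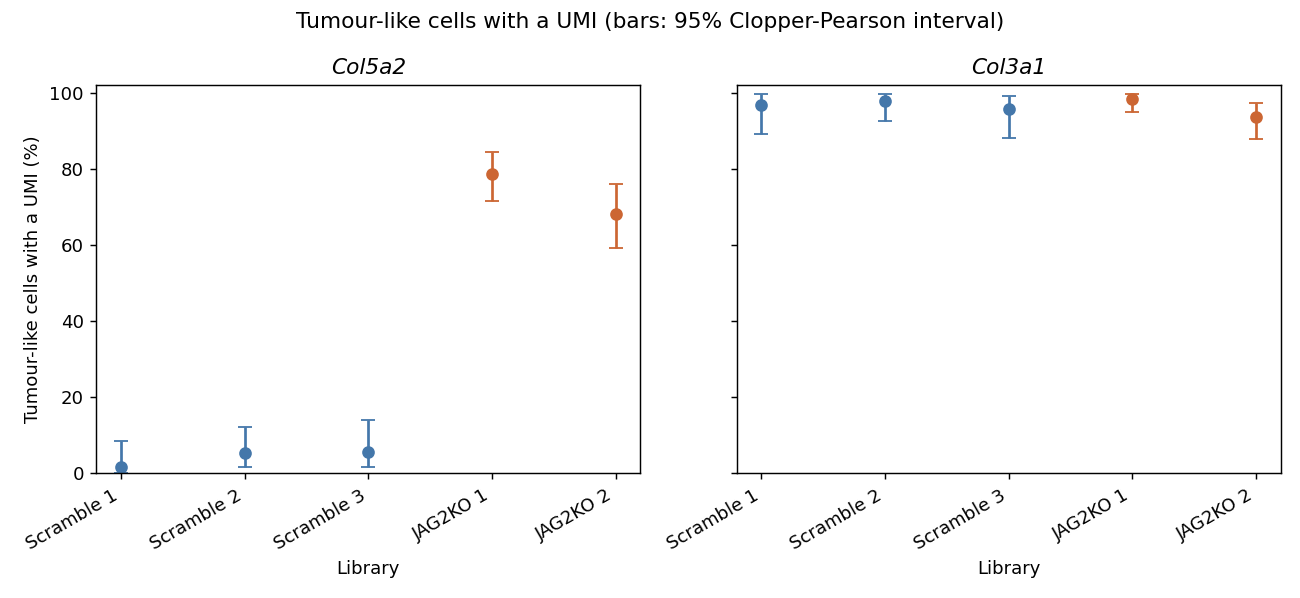
Share of tumour-like cells with a Col5a2 or Col3a1 UMI (y axis, %) by library (x axis), with 95% Clopper-Pearson intervals. For Col5a2 the Scramble libraries lie at 1.59% to 5.71% and the JAG2KO libraries at 68.0% and 78.5%, while for Col3a1 the 5 libraries lie at 93.6% to 98.3%.

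The other chain called higher was Col1a1, with 35.3, 70.4 and 33.9 CPM in the Scramble libraries, with 97.0 and 82.7 CPM in the JAG2KO ones (0.98 ± 0.25, adjusted p = 0.033). The JAG2KO libraries were both above all Scramble ones. Without the 1 cell of JAG2KO 1 that held 501 of its 688 UMIs, a setting added after seeing the data, the difference was 0.20 with an adjusted p of 0.824. It was also not called without Scramble 1, without Scramble 3 or without JAG2KO 1 (adjusted p = 0.085, 0.102 and 0.123).

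Chains of type VI and type IV were lower. Col6a3 had 309, 391 and 319 CPM in Scramble against 173 and 187 CPM in JAG2KO, with no overlap (-0.87 ± 0.14, adjusted p = 0.0028). Its partners moved the other way without passing: Col6a1 had a difference of 0.45 ± 0.15 (adjusted p = 0.086) and Col6a2 of 0.43 ± 0.17 (adjusted p = 0.145). Col4a1 had 177, 178 and 174 CPM in Scramble against 98.8 and 122 CPM in JAG2KO (-0.63 ± 0.14, adjusted p = 0.015). Col4a2 had 104, 88.5 and 87.1 CPM against 39.5 and 55.4 CPM (-0.94 ± 0.18, adjusted p = 0.0078).

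Both type IV chains were lower in each JAG2KO library than in every Scramble library. Without JAG2KO 1 neither was called (adjusted p = 0.101 for Col4a1 and 0.061 for Col4a2), and Col4a1 also not without Scramble 2 (adjusted p = 0.067). Col14a1, Col8a1, Col16a1, Col18a1 and Col7a1 were tested and not called, with adjusted p-values of 0.139 to 0.954.

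Fibroblast markers were lower in sum as well. Their summed level in tumour-like cells was 2183, 2182 and 1840 CPM in Scramble against 1028 and 1489 CPM in JAG2KO, with 8 to 10 of 12 markers detected and Sfrp1 and Sfrp2 at 0 in each library. The macrophage markers summed to 319, 442 and 363 CPM in Scramble against 407 and 238 CPM in JAG2KO, with 6 of 6 detected. The endothelial markers summed to 15.4 to 19.3 CPM over the 5 libraries. The part of RNA from fibroblasts, macrophages or endothelial cells in the levels of Col5a2, Col6a3, Col4a1 and Col4a2 was not tested.

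Some enzymes that build and cross-link collagen differed in the same cells. Of 33 genes listed for collagen synthesis and processing 26 were tested in tumour-like cells, of which 2 were higher and 8 lower in JAG2KO and the others did not pass, where 4.11% and 5.36% of all genes were, with a median log2 difference of -0.30. Fkbp10, a chaperone and prolyl isomerase for procollagen in the endoplasmic reticulum, had 69.3, 69.4 and 65.5 CPM in Scramble against 8.74 and 4.15 CPM in JAG2KO (-3.23 ± 0.22, adjusted p = 1.4e-05). P3h4, a partner of lysyl hydroxylation complexes, had 31.7, 40.9 and 29.8 CPM against 4.93 and 2.07 CPM (-3.09 ± 0.28, adjusted p = 9.2e-05). Plod2, the lysyl hydroxylase of collagen telopeptides, had 386, 431 and 448 CPM against 152 and 166 CPM (-1.37 ± 0.13, adjusted p = 0.00011).

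Going the other way, Loxl2, a lysyl oxidase-like enzyme that cross-links collagen, had 3.62, 1.77 and 0.877 CPM in Scramble against 63.6 and 40.3 CPM in JAG2KO (4.83 ± 0.33, adjusted p = 1.6e-05). Both JAG2KO libraries were above the 3 Scramble ones for Loxl2. Of 16 genes listed for receptors, uptake and breakdown 12 were tested, with 1 higher and 1 lower, where 9.47% of all genes passed. Mrc2, the uptake receptor Endo180, was lower (25.8, 19.4 and 17.5 against 5.36 and 2.67 CPM, -2.19 ± 0.30, adjusted p = 0.0012), and the gelatinase Mmp9 was higher (6.34, 6.56 and 5.26 against 13.3 and 23.7 CPM, 1.60 ± 0.30, adjusted p = 0.0077). Macrophages held more Mmp9 than tumour-like cells in each library, 45.2, 17.1 and 37.6 CPM in Scramble against 106 and 52.6 CPM in JAG2KO, and their part in the tumour-like value was not tested.

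The same lists separated the gates. Of 31 synthesis genes tested in the gate comparison 20 were higher in fibroblasts than in tumour-like cells and 0 lower, where 9.77% and 7.04% of all genes were. Of the same genes 22 were higher in tumour-like cells than in macrophages and 6 lower, where 36.7% and 39.2% of all genes were. Lox, the main lysyl oxidase, differed most among them between fibroblasts and tumour-like cells by adjusted p (9.25 ± 0.72, adjusted p = 1.9e-05). Sparc, a collagen-binding matrix protein, had the smallest adjusted p of the list for fibroblasts against macrophages (9.75 ± 0.55, adjusted p = 1.5e-06). Of 15 receptor and breakdown genes 5 were higher in fibroblasts than in tumour-like cells and 0 lower, where 9.77% and 7.04% of all genes were, led by the gelatinase Mmp2 (9.45 ± 0.72, adjusted p = 1.6e-05). The mannose receptor Mrc1 and the inhibitory collagen receptor Lair1 were lower in tumour-like cells than in macrophages (-4.77 ± 0.13, adjusted p = 7.8e-10, and -4.84 ± 0.20, adjusted p = 3.8e-09).

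In macrophages 1 of 23 chains tested differed between JAG2KO and Scramble. Over all 14033 genes tested there 1.9% passed, 0.841% higher and 1.05% lower. Col14a1 was lower, with means of 79.9 ± 9.57 CPM (SD, n = 3) and 43.98 ± 7.80 CPM (SD, n = 2), and the groups did not overlap (-0.88 ± 0.13, adjusted p = 0.031). The call was lost without Scramble 1, without Scramble 2 or without JAG2KO 2 (adjusted p = 0.077, 0.105 and 0.067). In macrophages with an Fcrls UMI Col14a1 was still called lower, while in those without one the difference was 0.28 with an adjusted p of 0.203. Fcrls-positive macrophages were 3821, 4080 and 3471 cells in Scramble, where 2281, 2203 and 1986 had none. In JAG2KO they were 3858 and 4326, where 3732 and 9826 had none.

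Other genes that differed in tumour-like cells had low values in macrophages. Col5a2 had 0.372, 0.292 and 0.164 CPM in Scramble macrophages and 0.627 and 3.34 CPM in JAG2KO ones (2.83 ± 0.69, adjusted p = 0.094), which is 0.602% and 2.88% of the tumour-like level in JAG2KO 1 and 2. Fkbp10 had 4.43, 3.26 and 1.38 against 0.111 and 0.215 CPM (-4.25 ± 0.60, adjusted p = 0.028), and Mrc2 1.59, 0.807 and 0.436 against 0.0614 and 0.0767 CPM (-3.77 ± 0.68, adjusted p = 0.047). They were the 1 called gene of 26 tested in the synthesis list and the 1 called of 15 in the receptor list, both lower, where 1.05% of all genes were. For Col5a2, Fkbp10 and Mrc2 the sign was that of the tumour-like cells. Whether macrophages themselves changed them was not tested.

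Over all kept cells 4 of 23 chains tested passed, 3 higher and 1 lower in JAG2KO, where 6.76% of 15236 genes passed, 3.61% higher and 3.15% lower. In such sums more cells of a type and more RNA per cell cannot be told apart. Col5a2 had 1.21, 3.04 and 1.70 CPM in Scramble and 11.8 CPM in both JAG2KO libraries (2.53 ± 0.32, adjusted p = 0.0069). Col6a1 (16.8, 20.2 and 14.2 against 35.3 and 25.1 CPM, 0.77 ± 0.17, adjusted p = 0.040) and Col6a2 (9.78, 11.3 and 7.87 against 20.6 and 14.5 CPM, 0.81 ± 0.17, adjusted p = 0.039) were higher. Col14a1 was lower (83.8, 73.0 and 62.8 against 44.3 and 33.8 CPM, -0.95 ± 0.15, adjusted p = 0.014).

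The calls of Col6a1 and Col6a2 were lost without any 1 of Scramble 1, Scramble 2, Scramble 3 and JAG2KO 1, and that of Col14a1 without Scramble 2 (adjusted p = 0.055). With the tumour-like, fibroblast, endothelial and pericyte gates left out of the sums, a setting added after seeing the data, 1 chain was called and Col5a2 had a difference of 2.16 with an adjusted p of 0.104. In the list of synthesis genes 3 were higher and 6 lower of 31 tested over all kept cells, where 3.61% and 3.15% of all genes were, led by Fkbp10 (-2.70 ± 0.20, adjusted p = 0.0017) and Loxl2 (2.70 ± 0.33, adjusted p = 0.0060). In the receptor list 1 was higher and 2 lower of 15, against the same shares of all genes, led by the neutrophil collagenase Mmp8 (-1.48 ± 0.22, adjusted p = 0.012), and neutrophils were 5.44% ± 1.35 of kept cells in Scramble and 1.37% ± 0.193 in JAG2KO.

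Of the less abundant chains, Col9a3, Col20a1 and Col11a2 had 106, 137 and 432 UMIs over all kept cells. Transmembrane chains had 169 UMIs in all, most of them Col23a1 with 146. The JAG2KO effect on fibroblast and endothelial chains could not be tested, since no library had 20 cells of either gate.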

How the data were processed

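Droplet single-cell RNA sequencing libraries of CD45-sorted cells from LLC flank tumours were analysed, 3 Scramble and 2 JAG2KO, with groups and replicate numbers from the labels. The deposited values are raw UMI counts, 1 table a library, made by the authors with cellranger 6.0.0 per the file headers. Seurat, GRCm38 and mm10 are named in the submitters' processing notes without a role. Barcodes without a cell had been removed by the authors, per the labels.

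Kept cells had 500 UMIs and 250 genes or more, with no more than 10% of UMIs from mitochondrial genes. Gates used marker panels without collagen genes: a panel was positive with UMIs of 2 genes (macrophages 3) and 3 UMIs in all, and stromal gates had an immune share under 25% of the library's macrophage median. The tumour-like gate asked for 2 Rhox5 UMIs. No doublet caller was run. Immune gates left out cells positive for any other panel. Stromal gates left out cells positive for another stromal panel, except that tumour-like cells could be positive for the fibroblast panel, and they limited immune genes by the ceiling alone. UMIs were summed per gate and library and tested with edgeR 4.0.16 (R 4.3.3; quasi-likelihood, TMM, filterByExpr, threshold 0.05), with 20 cells per library in the JAG2KO fits and 10 in the gate comparison. The standard error is the log2 difference over the square root of F. Scripts were tested on simulated counts.

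Levels are given for the 6 highest chains of each stromal gate and every chain called between JAG2KO and Scramble. A chain marks a gate where it is called and higher there than in each other gate tested. Up to 4 genes of each pathway list are named by smallest adjusted p, and other chains named were chosen after their values were seen. Members and lists were chosen with earlier results of these data known. The fibroblast and endothelial JAG2KO tests were not run for lack of cells. Alternatives were DESeq2 1.42.0, no filter, other cell filters, other gate settings, thinned sums, a replicate block and each library left out.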

Additional observations from a re-analysis of the deposited data

Results flagged for a closer look

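Col27a1, a fibrillar chain, stood above the other immune gates in dendritic cells, a gate outside the comparisons of the report. Over the 5 libraries it had 56 UMIs there, 19.3 CPM (exact Poisson 95% interval 14.6 to 25.1), against 1.36 CPM (1.24 to 1.49) in macrophages, 0.994 CPM (0.205 to 2.90) in neutrophils and 0.704 CPM (0.145 to 2.06) in T or NK cells. The intervals cover counting error only. By library it had 14.04, 41.1 and 0 CPM in Scramble 1, 2 and 3 and 19.9 and 26.7 CPM in JAG2KO 1 and 2, in 57, 30, 58, 128 and 168 cells. Scramble 3 had no Col27a1 UMI in its dendritic cells, so that 4 of 5 libraries show the higher level.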

How the results depend on the processing

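The numbers of chains called between JAG2KO and Scramble moved with some settings. In tumour-like cells 5 chains became 10 with no filter on low counts and 2 to 8 without each library. In macrophages 1 became 3 with DESeq2, 4 with no filter, 4 with the replicate block, 0 with cells over 3 times the gate's median depth left out, 0 in macrophages without an Fcrls UMI, and 0 to 2 without each library. Both counts of 0 are edgeR's, with 2168 and 3126 genes at an unadjusted p under 0.05, and over all genes edgeR called 266 in macrophages and DESeq2 943. Over all kept cells 4 became 8 with the replicate block, 1 without the stromal gates, and 1 to 5 without each library.

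Between gates, chains called for fibroblasts against tumour-like cells went from 16 to 10 and chains marking fibroblasts from 15 to 9 with the immune ceiling at 50%, and both fell to as low as 5 without each library (to 16 and 15 at most). Chains marking tumour-like cells went from 1 to 0 with thinned sums and 0 to 1 without each library. Endothelial calls ranged from 4 to 14 against fibroblasts and from 4 to 9 against tumour-like cells without each library.

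The tumour-like share in JAG2KO minus that in Scramble was 0.355 percentage points, and -0.159 without JAG2KO 1 (0.869 at most, without JAG2KO 2). Thinning raised the T or NK levels of Col3a1 and Col14a1 to 19.0 and 10.4 CPM. Reversed were Col1a1 in tumour-like cells (-0.56) with 1 Rhox5 UMI, Col14a1 in macrophages without Fcrls (0.28), and, with fibroblast-panel-negative tumour-like cells, Col12a1 (-5.73) and Col1a1 (-3.37) against macrophages. The causes were not tested.

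Replicate numbers do not show pairing: same-numbered libraries deviated with correlations of 0.0089 and -0.031 (tumour-like), 0.041 and 0.129 (macrophages) and 0.170 and 0.018 (all kept cells), across genes. With the replicate block 6 chains were called in tumour-like cells. Of the other values 173 counts and levels kept their call or range. The 20-cell, 5% mitochondrial, 10% ceiling and 3-fold depth settings left no fibroblast gate to test. Cell numbers limit the fibroblast (2 to 16 per library) and endothelial (0 to 8) gates.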

Other observations

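The pericyte gate, positive for genes such as Rgs5 and Notch3, held 1 cell of Scramble 1 and 3 of JAG2KO 2 and entered no comparison. Col4a1 had 7638 and 4327 CPM in them, Col4a2 2897 and 1983 CPM, Col1a1 2107 and 2344 CPM, Col6a3 2634 and 2253 CPM and Col3a1 1580 and 2253 CPM. With 29 and 48 UMIs of Col4a1 these are values of very few cells. Basement membrane and fibrillar chains stood side by side in the 1 cell of Scramble 1. In JAG2KO 2, 1 cell held 43 of the 48 Col4a1 UMIs and 1 cell held all 25 Col3a1 UMIs. Whether these were the same cell was not tested.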
